A study of Mus musculus with 22 samples.

Results

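The comparison set 3 arrays of ileal RNA from female NOD mice given PAT, antibiotics in pulses of therapeutic doses, against 3 arrays from control females. The PAT arrays carry the titles BP121, BP125 and BP129 and are called PAT females 1, 2 and 3 here, and the controls carry BC100, BC101 and BC107 and are called control females 1, 2 and 3. They were picked by title from the 22 arrays of the series, and all 18193 genes with a named probe set were described, each through its brightest probe set. NOD is an inbred mouse strain that develops autoimmune diabetes, and every group of the series shares this strain and the terminal ileum as its tissue. The other arrays came from 3 females given STAT, a sub-therapeutic level of antibiotics, and from 5 control, 5 PAT and 3 STAT males. The sources used here do not name the drugs, the doses or the ages. Nothing in the labels ties an array to a separate animal, so p-values measure only the spread between these arrays, which may in part be technical.

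The terminal ileum takes bile acids back from the gut lumen and carries a dense population of bacteria. Its wall holds lymphocytes scattered through the epithelium and also Peyer's patches, discrete clusters of B cell follicles with T cell zones and specialised venules. Interferon-stimulated genes and antimicrobial proteins of the epithelium, such as Reg3g and serum amyloid A, are known to respond to gut bacteria. The PAT comparison in females was described gene by gene and by lists of genes for lymphoid cells, other cell types and pathways. Lists were chosen with earlier results of these data known, so a list count above the share of all genes is a description.

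Levels are log2 values, so a difference of 1 is a 2-fold change, and a change was called where limma gave a Benjamini-Hochberg adjusted p under 0.05 over all genes. Of the 18193 genes, 413 were higher (2.27%) and 197 lower (1.08%) in PAT females, 610 in all (3.35%), and 321 of these changed at least 1.5-fold. All 3 PAT arrays lay above all 3 controls for 14.7% of genes and below them for 13.2%. At an unadjusted p under 0.05 in limma, 11.9% of all genes were higher and 8.92% lower. Those are the shares for every such list count with all arrays below. The split between higher and lower calls moved with the scaling, from 413 and 197 as deposited to 340 and 372 after repeated quantile normalization, 439 and 152 with columns centred on the median of all probe sets, and 243 and 348 with columns centred on the median of the genes tested. The median change over all genes was -0.0064 as deposited and -0.081 under the last of these. Xist lay between 12.07 and 12.60 in the 6 arrays and at most at 7.75 in males, and Fabp6, the bile acid binding protein of ileal enterocytes, lay between 14.28 and 14.62. Sex matched the labels, while other region genes set PAT female 1 apart from the labelled terminal ileum of the other arrays, as given next.

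PAT female 1 stood apart from the other PAT arrays. In it 164 genes lay more than 1 log2 unit above the mean of PAT females 2 and 3 and 125 below, against 75 and 61 for PAT female 3 and 49 and 46 for PAT female 2 set against the other members of their group, and at most 14 and 34 for any control. Lct, the lactase of the upper small intestine, was at 10.37 in PAT female 1 and between 4.18 and 4.81 in the other 21 arrays. Gip, a hormone of upper intestinal endocrine cells, was at 11.70 there and between 6.46 and 7.89 elsewhere. Of 12 genes typical of the upper small intestine, a list chosen after the values were seen, 11 were higher in PAT female 1 than in all other 21 arrays, which held for 9.52% of all genes, and Treh was not. The antimicrobial peptide Leap2 (10.60), the glucose transporter Slc2a2 (10.02), the ceramidase Asah2 (9.91) and the phosphate transporter Slc34a3 (9.01) were among them. Cybrd1 (6.70 against 6.67), Cck (7.87 against 7.83) and Slc5a1 (13.06 against 12.98) passed the highest of the other arrays only by little. The glucuronosyltransferase Ugt2a3 was also high at 9.43, against a mean of 5.25 in PAT females 2 and 3, and the amino acid transporter Slc6a14 was low at 3.71, against 7.68. Genes with the widest such gaps were picked for them, so these values are a description.

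Some position genes of the Hox family went the other way in PAT female 1. The homeobox gene Hoxb9 was at 5.16 there and between 8.44 and 9.13 in the other 21 arrays. Hoxb6 was at 6.45 there, against 7.57 to 8.77. Of 10 Hox genes, also chosen after the values were seen, 4 lay below all other 21 arrays, against 7.38% of all genes, and 6 lay within their range. Hoxa10, among the 4, was dim and lay below by little, at 3.21 against a lowest other value of 3.26. The bile acid transporter Slc10a2 was at 9.61, below the range of 9.98 to 11.98, while Fabp6 (14.34), Slc51a and Slc51b lay within theirs. Hoxb6 was called lower in PAT females (-0.95 ± 0.26 SE, adjusted p = 0.049) and was at -0.41 without PAT female 1 (adjusted p = 0.14).

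Fat genes varied within both groups. The adipocyte hormone Adipoq was at 8.30, 10.13 and 4.18 in the controls and at 4.14, 11.16 and 9.58 in PAT, and Car3 ran from 5.84 to 13.72. PAT female 1 and control female 3 were the low arrays for both genes. None of the 6 adipocyte genes was called by limma, and at an unadjusted p under 0.05 Cidec was higher and Lep lower. The Gapdh control probe sets at the 3′ end minus those at the 5′ end, a measure of RNA integrity, gave -0.03 in PAT female 1, -0.08 and -0.11 in PAT females 2 and 3, and -0.17, -0.20 and -0.09 in the controls. The same measure for actin gave 0.40, 0.39 and 0.30 in PAT females 1, 2 and 3 and 0.33, 0.33 and 0.31 in the controls. PAT female 3 lay below every control there, and the actin measure was not used as a covariate. The part of region and fat in the differences below was not tested, and values without PAT female 1 stand beside them. With the Gapdh end difference as a covariate 142 genes were called, against 610 without it. Of the 64 called genes named below 35 then lost their call, Gzma, Fabp1, Dio1, Tppp, Cyp3a25, Psat1, Mcm3 and Kdr among them. Whether integrity caused these losses was not tested.

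**Figure D1:**
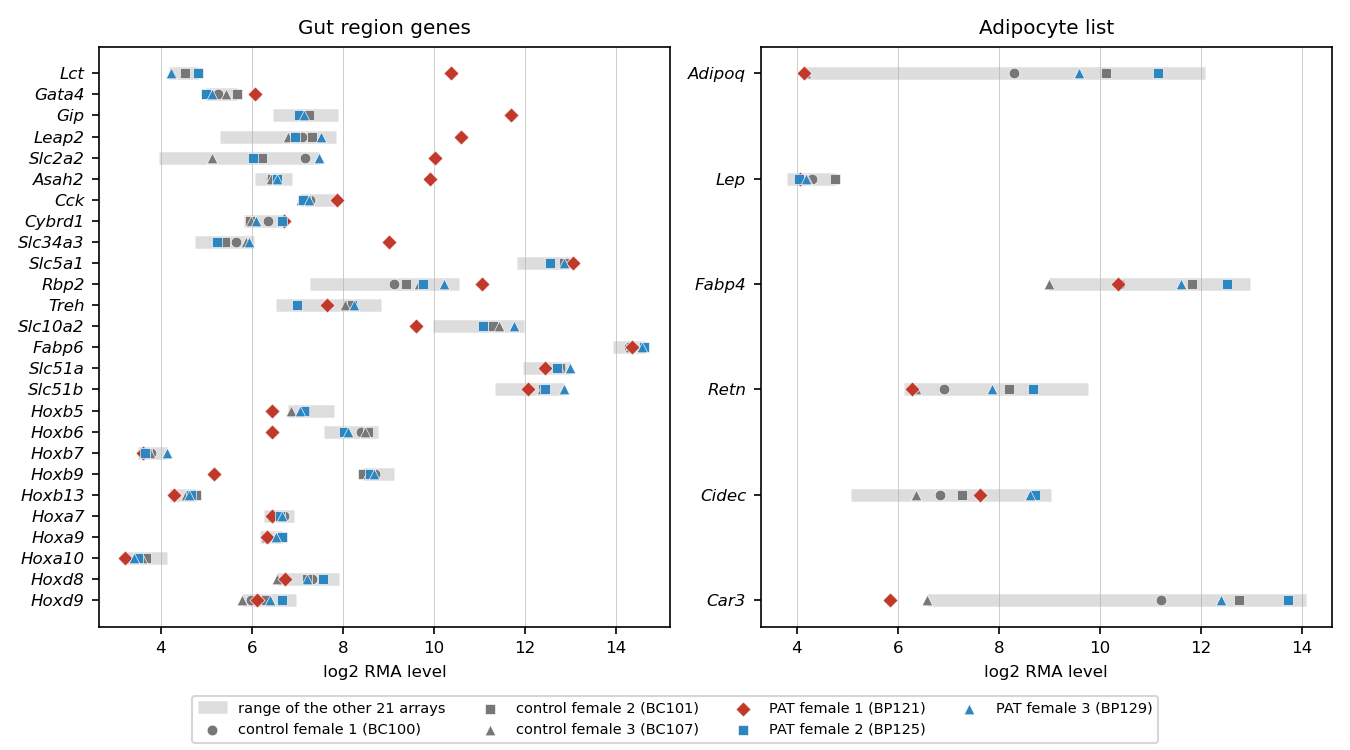
Log2 levels of 12 genes of the upper small intestine, 4 bile acid uptake genes and 10 Hox genes (left) and of 6 adipocyte genes (right), with gene names on the vertical axes and log2 level on the horizontal axes. Points are the 6 female arrays and grey bars the range of the 21 arrays other than PAT female 1, which is the high point for Lct at 10.37 and the low point for Hoxb9 at 5.16.

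The higher lymphoid levels in PAT females lay almost entirely in PAT female 1. The 8 lymphoid lists held 100 measured genes of 113. Their mean level over the mean of the controls was 0.78 in PAT female 1, 0.04 in PAT female 2 and -0.10 in PAT female 3, and over all 21 arrays other than PAT female 1 it ran from -0.10 to 0.22. PAT female 1 lay more than 1 log2 unit above the mean of the other PAT arrays for 36 of the 100 genes, against 0.901% of all genes, and no lymphoid gene lay so far up in any other of the 6 arrays. It was the highest of all 22 arrays for 48 of 100, against 9.52% of all genes. PAT females 2 and 3 were both above every control for 7 of 100, against 19.7% of all genes. In bulk tissue, more cells of a type and more RNA per cell cannot be told apart.

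Limma called 3 lymphoid genes higher (2.27% of all genes were) and 1 lower (1.08%). The median change of the 100 genes was 0.16, against -0.0064 for all genes. Without PAT female 1 no lymphoid gene was higher (0.495% of all genes were), with 4 at an unadjusted p under 0.05 (9.21% of all genes), 1 was lower (0.236%), and the median was -0.0084. Without PAT female 3, 17 of the 100 lymphoid genes were higher, against 528 of all 18193 genes, and the lymphoid median was 0.26. Without PAT female 2 the lymphoid median was 0.24. With 2 PAT arrays in place of 3 fewer calls were made over all genes too, 133 without PAT female 1 (0.731%) and 180 without PAT female 2, but 751 without PAT female 3.

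B cell genes showed the gap most. Ms4a1, the B cell surface protein CD20, was at 4.50, 4.85 and 4.66 in the controls and at 9.16, 4.65 and 4.67 in PAT females 1, 2 and 3. Only PAT female 1 was high, and the others lay within the range of the controls. The change was 1.49 (adjusted p = 0.22) with all arrays and -0.0075 without PAT female 1. Cd79b, a chain of the B cell receptor, was at 5.22, 5.02 and 5.40 in the controls and at 8.16, 5.90 and 5.43 in PAT, so that all 3 PAT arrays lay above the controls, PAT female 3 by little. The B cell transcription factor Spib was at 7.50 in PAT female 1 and at 4.81 to 5.38 in the other 21 arrays, and Tnfrsf13c, the receptor for the survival factor BAFF, at 7.68 against 4.48 to 5.22. The same array was high for Pou2af1, a B cell transcriptional coactivator, at 8.23, for the lymphotoxin gene Ltb at 8.45 and for Fcmr, the receptor for immunoglobulin M, at 6.56.

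Over the 21 measured B cell and follicle genes the mean over controls was 1.55 in PAT female 1, 0.09 in PAT female 2 and -0.08 in PAT female 3. In 15 of the 21 PAT female 1 exceeded the other PAT arrays by more than 1 log2 unit, and it was the highest of the 22 arrays for 16. The list median was 0.39 with all arrays, -0.0020 without PAT female 1, 0.61 without PAT female 2 and 0.76 without PAT female 3. Pax5, Blk, Cr2, Fcer2a and Blnk were the members for which some other array was higher. At an unadjusted p under 0.05 in limma, 8 of the 21 were higher (11.9% of all genes) and none lower. Without PAT female 1, 2 were higher at that level (9.21% of all genes) and 1 lower (6.47%). The only member called was Cxcl13, the chemokine that draws B cells into follicles. It was at 6.72, 6.94 and 7.32 in the controls and at 9.73, 7.96 and 7.27 in PAT, so the groups overlapped through PAT female 3. Its rise of 1.33 ± 0.36 (SE, adjusted p = 0.048) became 0.62 without PAT female 1 (adjusted p = 0.18), and the call ended without any 1 array other than PAT female 3.

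**Figure D2:**
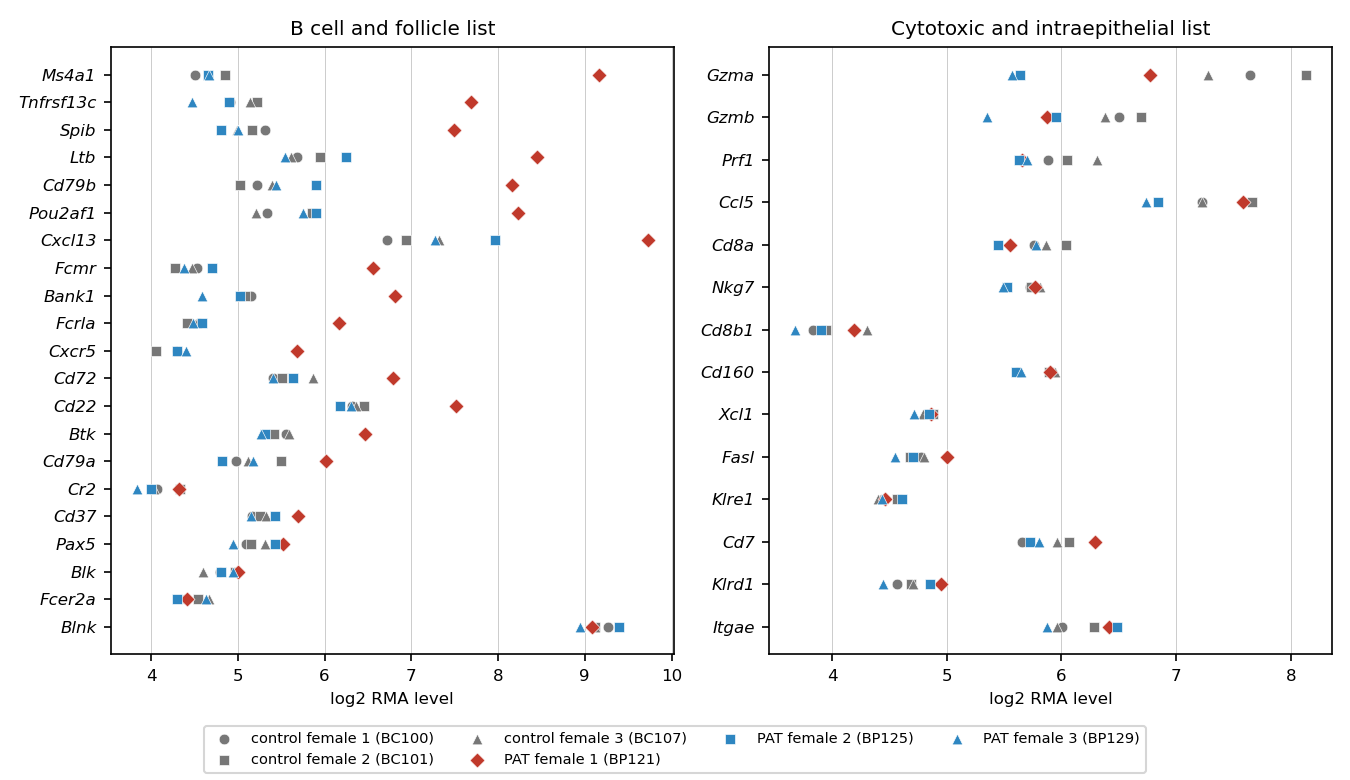
Log2 levels of the 21 B cell and follicle genes (left) and the 14 cytotoxic and intraepithelial lymphocyte genes (right) on the horizontal axes, in control arrays (grey), PAT female 1 (red) and PAT females 2 and 3 (blue), with gene names on the vertical axes. PAT female 1 is alone on the right for most B cell genes, as for Ms4a1 at 9.16, and Gzma is lower in all 3 PAT arrays.

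The lists that accompany follicles followed the same array. Recirculating lymphocyte and homing genes had a mean over controls of 1.25, 0.24 and 0.06 in PAT females 1, 2 and 3. Among them Glycam1, a ligand for lymphocyte homing made by high endothelial venules, was at 8.18 in PAT female 1 and at 4.41 to 5.01 in the other 21 arrays. The naive lymphocyte receptors Ccr7 (6.01) and Il7r (7.21) were also highest there. Germinal centre genes had means of 0.84, -0.03 and 0.10, led by the signalling regulator Rgs13 at 6.79 in PAT female 1, and Mybl1 lay above the controls in all 3 PAT arrays (4.99, 4.74 and 4.73, against 4.34, 4.55 and 4.29). None of the 8 homing and 6 germinal centre genes was called by limma, and 3 and 1 of them were higher at an unadjusted p under 0.05 (11.9% of all genes).

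Pan-leukocyte genes had means over controls of 1.23, 0.22 and -0.12. At an unadjusted p under 0.05 in limma, 8 of the 15 were higher (11.9% of all genes) and none lower. Without PAT female 1, 1 was higher at that level (9.21% of all genes) and 1 lower (6.47%). Ptprc, the common leukocyte antigen CD45, was at 7.88, 7.90 and 7.74 in the controls and at 9.91, 8.21 and 7.72 in PAT. PAT female 1 was high and PAT female 3 just under the controls. Sash3, an adaptor of lymphocyte receptor signalling, was the exception that all 3 PAT arrays shared, at 7.68, 6.50 and 6.38 against 6.19, 6.02 and 5.72. It rose by 0.88 ± 0.23 (SE, adjusted p = 0.041), and was at 0.46 without PAT female 1 (adjusted p = 0.17). Its call also ended without any 1 of the controls.

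T cell genes set PAT female 1 apart less. Their means over controls were 0.27, -0.07 and -0.09, and 2 of 16 exceeded the other PAT arrays by more than 1 log2 unit in PAT female 1, Cd3d and Cd3g, chains of the T cell receptor complex. The coreceptor Cd4 was at 6.54, 6.45 and 6.67 in the controls and at 6.43, 6.38 and 6.42 in PAT, slightly below. Thy1, a surface protein of T cells and also of some stromal cells, was at 5.87, 6.20 and 5.43 in the controls and at 6.60, 6.52 and 6.28 in PAT. All 3 PAT arrays lay above the controls, and its rise of 0.63 ± 0.17 (SE, adjusted p = 0.048) was 0.57 without PAT female 1 (adjusted p = 0.17), with the call also ending without PAT female 2, control female 1 or control female 3 (adjusted p up to 0.23). Helper, regulatory T cell and innate lymphoid genes had means of 0.18, 0.06 and -0.05, none of the 11 was called by limma, and 1 was higher and 1 lower at an unadjusted p under 0.05. The chemokine receptor Ccr6, which B cells also carry, was their widest gap at 7.27 in PAT female 1 against 5.58 to 6.15 in the other 21 arrays.

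Plasma cell genes were high in other arrays of the series too. Their means over controls were 0.74, 0.18 and 0.05, but other arrays of the series reached 0.75. Jchain, which joins immunoglobulin A and M subunits, was at 12.25, 12.23 and 11.64 in the controls and at 12.57, 12.46 and 12.21 in PAT. Ighm, the heavy chain of immunoglobulin M, was at 9.96 in PAT female 1 and at 7.75 to 8.83 in the other 21 arrays. Mzb1, a chaperone of antibody-secreting cells, lay above the controls in all 3 PAT arrays (9.56, 8.41 and 8.25, against 8.03, 8.10 and 7.45) and did not pass (0.88, adjusted p = 0.085). None of the 9 was called by limma, and 3 were higher at an unadjusted p under 0.05.

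Cytotoxic and intraepithelial lymphocyte genes did not lie above the controls in PAT female 1. Their means over controls were -0.04, -0.29 and -0.43, so PAT females 2 and 3 were the low arrays. PAT female 1 was the highest of the 3 PAT arrays for 9 of 14, against 34.2% of all genes. At an unadjusted p under 0.05 in limma, 4 of the 14 were lower (8.92% of all genes) and none higher. Without PAT female 1, 5 were lower at that level (6.47% of all genes) and none higher. Gzma, a granzyme of killer lymphocytes, was at 7.64, 8.14 and 7.27 in the controls and at 6.77, 5.64 and 5.57 in PAT. Every PAT array lay below every control and PAT female 1 lay nearest to them. The fall was -1.69 ± 0.39 (SE, adjusted p = 0.023) with all arrays and -2.08 without PAT female 1 (adjusted p = 0.015), and the call ended without PAT female 2, PAT female 3, control female 1 or control female 2 (adjusted p up to 0.11). Granzyme B, encoded by Gzmb (-0.80, adjusted p = 0.11), and the pore-forming Prf1 (-0.42, adjusted p = 0.072) also lay below the controls in all 3 PAT arrays and did not pass. Cd8a (-0.30), Itgae, the integrin that holds lymphocytes in the epithelium (0.17), and Cd160 (-0.10) did not pass either.

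Cells that lie beside lymphocytes gave a mixed pattern. MHC class II genes, carried by B cells and dendritic cells, had means over controls of 1.26, 0.09 and -0.10, with H2-Ob at 7.92 in PAT female 1 and at 4.12 to 5.13 in the other 21 arrays. None of the 8 was called by limma and 3 were higher at an unadjusted p under 0.05, and their median of 0.38 was -0.032 without PAT female 1. Macrophage and dendritic cell genes had means of 0.37, 0.23 and -0.03, and none of the 15 was called by limma, with 5 higher and 1 lower at an unadjusted p under 0.05. The M cell protein Gp2 was at 6.74 in PAT female 1 and at 5.40 and 5.48 in the others, all above the controls (5.28, 5.10 and 5.21), and did not pass (0.68, adjusted p = 0.13). Its list of 5 follicle-associated epithelium genes had a median of -0.032.

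**Figure D3:**
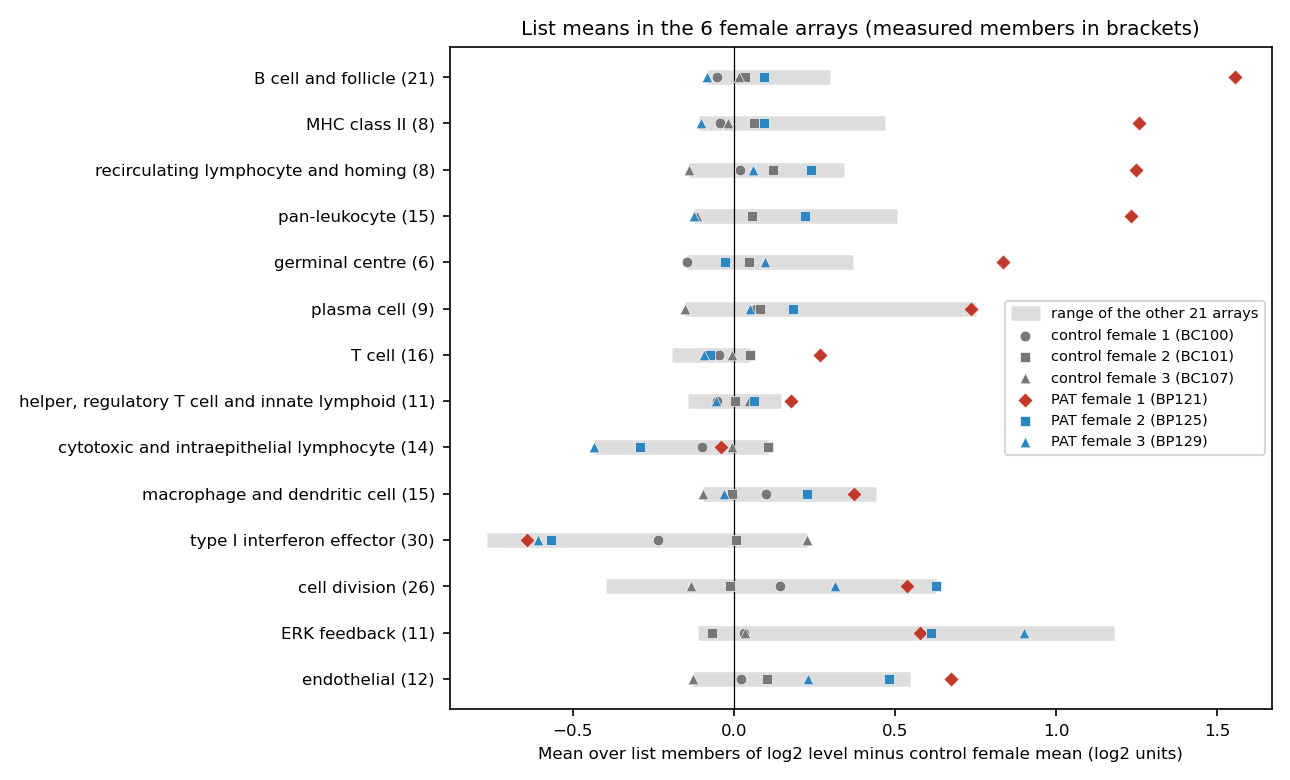
Mean log2 level of 14 gene lists in each of the 6 female arrays, set against the mean of the 3 control females on the horizontal axis, with the lists on the vertical axis and grey bars spanning the 21 arrays other than PAT female 1. PAT female 1 is far right for B cell (1.55), MHC class II (1.26) and homing genes (1.25), while the 3 PAT arrays lie together for interferon genes, from -0.64 to -0.57.

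The largest rise was shared by all 3 PAT arrays. Rab30, a small GTPase of the Golgi, was at 8.03, 8.25 and 8.25 in the controls and at 11.72, 11.14 and 12.86 in PAT, and rose by 3.73 ± 0.43 (SE, 13.3-fold, adjusted p = 0.00024), or 3.82 without PAT female 1. Each PAT array lay more than 2 log2 units above each control. The other 10 Golgi Rab GTPases measured were not called, and the list median was -0.037. Tcf23, a helix-loop-helix transcription factor, was at 7.08, 7.14 and 6.92 against 8.67, 8.72 and 9.04, and its rise of 1.76 ± 0.14 had the smallest adjusted p named here (6.2e-07). Of the 15 largest called rises, 9 were called whichever of the 6 arrays was dropped, namely Dmp1, Dusp6, Fst, Nat8f4, Phlda2, Plat, Plau, Rab30 and Tcf23. Of the 15 largest falls, G6pc, Trim30d and Edn2 were. Over the 64 called genes named here 13 kept their call in every such fit, and 42 lost it without PAT female 1, 38 without PAT female 2, 15 without PAT female 3, and 33, 47 and 45 without control females 1, 2 and 3. All 610 called genes kept their sign without PAT female 1, as they did without any other single array. They were picked as called with all arrays, so the kept sign is no test. Without PAT female 1, 86 of the 413 higher and 38 of the 197 lower stayed called.

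Secreted factors and proteases were among them. Fst, which encodes the activin inhibitor follistatin, was at 7.20, 7.53 and 7.25 in the controls and at 9.68, 9.43 and 8.84 in PAT, a rise of 2.0 ± 0.29 (SE, adjusted p = 0.0023). Both plasminogen activators rose, Plat by 1.97 ± 0.30 (adjusted p = 0.0026) and Plau by 1.67 ± 0.27 (adjusted p = 0.0026), with PAT arrays above all controls. The collagenase Mmp13 was at 7.76 in PAT female 1 and at 6.55 and 6.52 in the others, against 5.54, 5.40 and 5.78, and its rise of 1.37 was 0.96 without PAT female 1 (adjusted p = 0.051), and its call also ended without control female 2 (adjusted p = 0.055). Nat8f4, of an acetyltransferase family (1.47 ± 0.26 SE, adjusted p = 0.0063), and the mitochondrial protein Efhd1 (1.46 ± 0.31, adjusted p = 0.017) completed the 15. Dmp1, a matrix protein of bone, rose from dim levels of 4.24 to 4.60 to levels of 5.68 to 6.39.

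The 11 ERK feedback genes mostly restrain ERK, a kinase of growth factor signalling, but include the transcription factors Etv4 and Etv5. Of the 11, 5 were higher (2.27% of all genes were), none lower by limma and 6 not called. At an unadjusted p under 0.05, 6 were higher (11.9% of all genes) and none lower, and the list median was 0.35. The list was chosen with earlier results of these data known, so its counts are a description. Dusp6, a phosphatase that inactivates ERK, was at 9.63, 9.27 and 9.45 in the controls and at 11.40, 11.07 and 11.69 in PAT, and rose by 1.94 ± 0.29 (SE, 3.84-fold, adjusted p = 0.0026). The related phosphatase Dusp14 rose by 1.95 ± 0.46 (adjusted p = 0.026) and was highest in PAT female 3 at 9.16, against 7.28 and 7.16. Dusp4 (0.87), Dusp5 (0.82) and the receptor signalling inhibitor Spry2 (0.95) rose with adjusted p of 0.031, 0.031 and 0.045. The median without PAT female 1 was 0.45, and 2 members were then called, Dusp6 and Dusp14. Without any of the other arrays 1 or 2 were, and 3 were with columns centred on the median of the genes tested.

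Immediate early genes, which growth signals switch on through ERK among other routes, had a median of 0.42. None of the 15 was called by limma, and 4 were higher at an unadjusted p under 0.05. Maff was at 7.88, 7.68 and 7.83 in the controls and at 8.45, 8.85 and 9.89 in PAT (1.27, adjusted p = 0.055). Egr1 was at 10.84, 10.37 and 9.70 against 11.11, 12.32 and 12.19 (1.57, adjusted p = 0.16). PAT female 1 was the lowest of the 3 PAT arrays for both, and each lay above the controls. Phlda1, an early response gene, was not in the list and rose by 1.87 ± 0.39 (SE, adjusted p = 0.015), with 9.89 in PAT female 1 and 11.02 and 11.15 in the others.

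The rises also held 2 genes of lipid handling. Apoa4, an apolipoprotein of enterocytes, rose by 2.03 ± 0.54 (SE, adjusted p = 0.045) from 11.03, 11.08 and 10.79 to 13.26, 12.71 and 12.99, and Fabp1, a fatty acid binding protein typical of the liver and upper intestine, by 1.79 ± 0.45 (adjusted p = 0.035). Both were highest in PAT female 1, though all 3 PAT arrays lay above the controls, but the call of Apoa4 ended without any 1 of the 6 arrays and that of Fabp1 without any but PAT female 3 (adjusted p up to 0.15 and 0.13). Fabp1 was the only call among 14 genes of fatty acid oxidation, whose median was 0.16. The 9 ATF4 and CHOP targets, genes of the amino acid stress response, had a median of 0.28. At an unadjusted p under 0.05, 3 were higher (11.9% of all genes) and none lower. Limma called 2 higher (2.27% of all genes were) and none lower. These were Psat1 (1.25 ± 0.28 SE, adjusted p = 0.019) and Phgdh (0.98 ± 0.25, adjusted p = 0.036), both enzymes of serine synthesis. Their changes were 1.17 and 0.95 without PAT female 1, and the call of Psat1 ended without any of 4 arrays and that of Phgdh without any of 5, PAT females 1 and 2 among both (adjusted p up to 0.083 and 0.15).

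Endoplasmic reticulum folding genes shifted by little. Of 18 members 2 were higher (2.27% of all genes were) and none lower by limma, with 11 higher and 1 lower at an unadjusted p under 0.05 (11.9% and 8.92% of all genes), and the median was 0.30 with all arrays and 0.24 without PAT female 1. Creld2, a folding factor, was at 9.51, 9.30 and 9.73 in the controls and at 10.43, 10.30 and 10.12 in PAT (0.77 ± 0.21 SE, adjusted p = 0.048). Manf, a secreted factor of the stress response, was at 11.55, 11.40 and 11.71 against 12.05, 12.01 and 12.04 (0.48 ± 0.13, adjusted p = 0.044). The groups did not overlap for either gene, but the call of Manf ended without any 1 of the 6 arrays and that of Creld2 without any but PAT female 3 (adjusted p up to 0.16 for each).

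**Figure D4:**
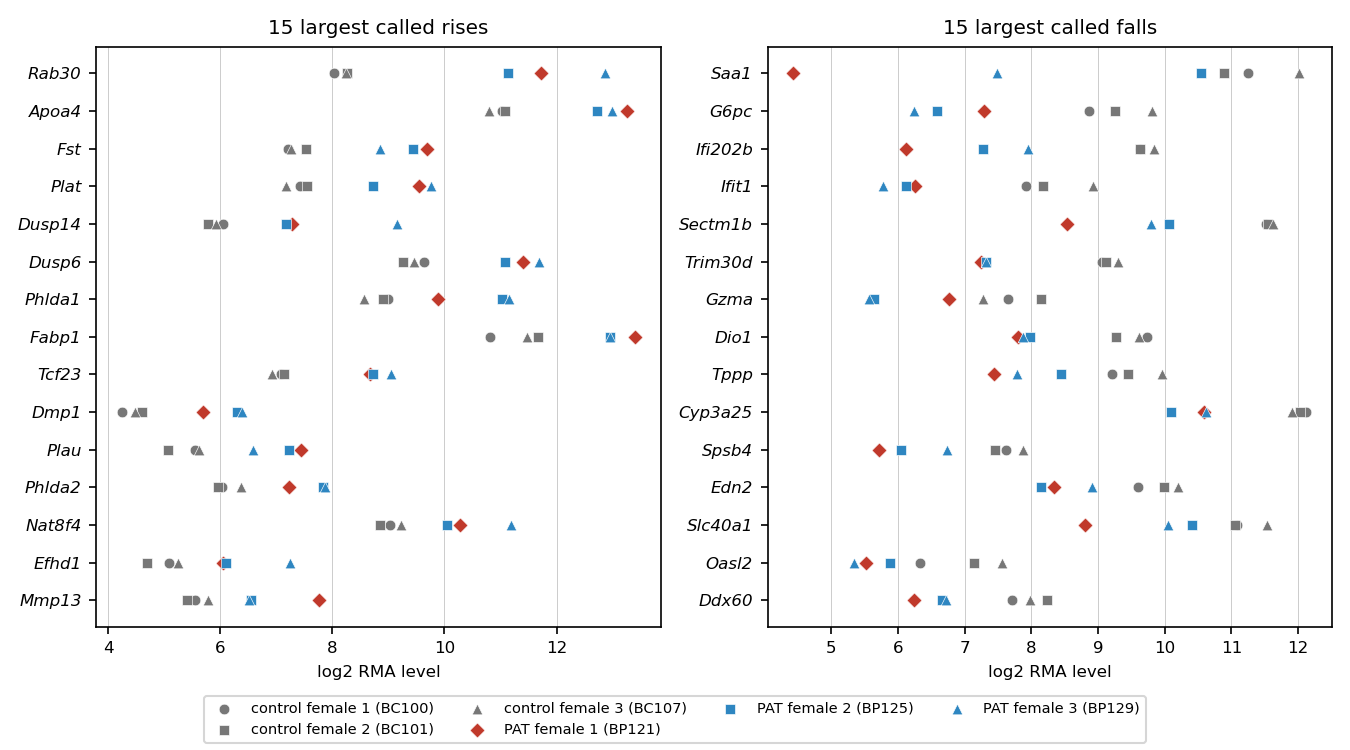
Log2 levels of the 15 largest called rises (left) and the 15 largest called falls (right) in the 6 female arrays, with gene names on the vertical and log2 level on the horizontal axes. In every row the 3 PAT arrays lie on 1 side of the 3 grey control arrays, and PAT female 1, in red, lies with the other PAT arrays for Rab30 and Trim30d and is the lowest point for Saa1 at 4.43.

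Of 30 type I interferon effectors, genes that interferon switches on, 10 were lower (1.08% of all genes were), 20 were not called and none was higher by limma. At an unadjusted p under 0.05, 18 were lower (8.92% of all genes) and none higher. The list median was -0.53 with all arrays and -0.50 without PAT female 1, against -0.0064 and -0.00024 for all genes. The list mean over controls was -0.64, -0.57 and -0.61 in PAT females 1, 2 and 3 and -0.23, 0.01 and 0.23 in control females 1, 2 and 3, so the groups did not overlap. In 19 of the 30 genes all 3 PAT arrays lay below all controls, against 13.2% of all genes. The list was chosen with earlier results of these data known, so such counts describe it and test nothing.

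Ifit1, which binds foreign RNA, was at 7.92, 8.18 and 8.92 in the controls and at 6.25, 6.12 and 5.78 in PAT, and fell by 2.29 on the log2 scale (SE 0.49, 4.90-fold, adjusted p = 0.017). Trim30d, a ubiquitin ligase family member, was at 9.05, 9.11 and 9.30 against 7.25, 7.33 and 7.32, and its change of -1.86 ± 0.29 was called whichever array was left out. The same held for Parp14, an ADP-ribosyltransferase, at 9.36, 9.47 and 9.76 against 8.68, 8.26 and 7.85 (-1.27 ± 0.23 SE, adjusted p = 0.0063). In Ifit1 and Trim30d the groups were far apart and PAT female 1 lay with the other PAT arrays. In Parp14 every PAT array lay below every control, and PAT female 1 lay nearest to the controls. Oasl2 (-1.43), Rtp4 (-1.40), the antiviral enzyme Rsad2 (-1.27), the signalling factor Irf9 (-0.64), Ifi35 (-0.58), Mx1 (-0.54) and the RNA sensor Ddx58 (-0.53) were the other called members, with adjusted p from 0.019 to 0.045. Without PAT female 1 the list kept 3 calls, Trim30d, Parp14 and Ifit1, and without any other array 2 to 6. The call of Ifit1 ended without control female 2 or control female 3 (adjusted p up to 0.089).

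Other interferon-regulated genes outside the list were among the 15 largest falls. Ifi202b, of a family of DNA sensors, was at 9.63, 9.62 and 9.84 in the controls and at 6.12, 7.27 and 7.94 in PAT (-2.59 ± 0.55 SE, adjusted p = 0.017), and Ddx60, a helicase, fell by 1.43 on the log2 scale (adjusted p = 0.018). PAT female 1 was lowest for both, and both calls ended without it, without control female 2 and without control female 3 (adjusted p up to 0.089 and 0.085). Of 11 interferon-inducible GTPases and chemokines 2 were lower (1.08% of all genes were), with a list median of -0.43. They were Irgm2 (-1.16 ± 0.31 SE, adjusted p = 0.042) and Irgm1 (-0.52 ± 0.14, adjusted p = 0.049), GTPases that act against intracellular microbes. The call of Irgm1 ended without any 1 of the 6 arrays and that of Irgm2 without any but control female 1 (adjusted p up to 0.17 for each). Of 12 genes for the immunoproteasome and MHC class I loading 2 were lower (1.08% of all genes were), with a median of -0.37. They were Tapbp (-0.63 ± 0.12 SE, adjusted p = 0.011), which loads peptides, and Psme1 (-0.35 ± 0.07, adjusted p = 0.015), a proteasome activator. Neither list had a member called higher by limma. At an unadjusted p under 0.05 none was higher in either, and 4 of the 11 and 9 of the 12 were lower (8.92% of all genes). The call of Tapbp ended without PAT female 2 (adjusted p = 0.054) and that of Psme1 without PAT female 2, control female 2 or control female 3 (adjusted p up to 0.063), so the immunoproteasome list had no call without PAT female 2. The medians were -0.47 and -0.37 without PAT female 1.

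Promoters of called members that moved together are shown for the letters they share. The table of RefSeq promoters on GRCm38.p6 gave 300 bases a start site, 250 before it and 50 after. It held 21 of the 30 type I interferon effectors, 9 of the 11 GTPases and chemokines and 16 of the 18 folding genes. The interferon-stimulated response element was searched as GAAA, 2 bases of any kind and GAAA on both strands, with overlapping matches allowed. It was present in 1131 of 32851 promoters (3.44%), or in 1079 of 27025 genes (3.99%). It was held by 12 of the 21 effector genes, 4 of the 7 called effectors with a promoter, 7 of 9 GTPases and chemokines and 3 of 10 immunoproteasome and MHC class I genes. The sequences below are 5′ to 3′ on the strand of the gene with the match in capitals, for Ifit1 (chr19:34640639-34640938, plus strand), Trim30d (chr7:104507800-104508099, minus strand), Rsad2 (chr12:26456403-26456702, minus strand) and Irgm1 (chr11:48871371-48871670, minus strand).
Ifit1: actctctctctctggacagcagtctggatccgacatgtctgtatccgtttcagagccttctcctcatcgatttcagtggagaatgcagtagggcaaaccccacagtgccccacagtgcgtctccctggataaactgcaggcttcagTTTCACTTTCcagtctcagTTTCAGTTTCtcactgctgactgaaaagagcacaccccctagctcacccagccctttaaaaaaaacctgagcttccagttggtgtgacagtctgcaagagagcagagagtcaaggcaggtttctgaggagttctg
Trim30d: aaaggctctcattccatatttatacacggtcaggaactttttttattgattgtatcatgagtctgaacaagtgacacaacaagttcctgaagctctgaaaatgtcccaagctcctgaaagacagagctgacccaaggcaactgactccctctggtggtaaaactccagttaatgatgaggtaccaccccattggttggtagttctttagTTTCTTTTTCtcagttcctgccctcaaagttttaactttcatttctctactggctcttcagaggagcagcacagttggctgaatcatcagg
Rsad2: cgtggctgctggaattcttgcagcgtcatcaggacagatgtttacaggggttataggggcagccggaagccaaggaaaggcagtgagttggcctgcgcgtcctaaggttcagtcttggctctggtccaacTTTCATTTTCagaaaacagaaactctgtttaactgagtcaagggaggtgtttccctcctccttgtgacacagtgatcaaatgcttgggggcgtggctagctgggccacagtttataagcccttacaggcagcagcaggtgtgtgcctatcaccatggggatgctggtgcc
Irgm1: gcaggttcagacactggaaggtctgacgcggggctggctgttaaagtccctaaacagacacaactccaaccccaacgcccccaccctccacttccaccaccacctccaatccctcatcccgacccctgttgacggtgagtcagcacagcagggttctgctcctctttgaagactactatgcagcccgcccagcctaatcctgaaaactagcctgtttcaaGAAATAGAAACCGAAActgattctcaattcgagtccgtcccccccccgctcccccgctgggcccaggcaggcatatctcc
Ifit1 held 2 matches and Irgm1 held 2 that overlap. A match is a description of letters and no measurement of binding, and these arrays did not measure binding.

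The endoplasmic reticulum stress element was searched as CCAAT, 9 bases of any kind and CCACG on both strands. It was present in 39 of 32851 promoters (0.119%), or in 37 of 27025 genes (0.137%), and in 8 of 16 folding genes. Creld2 (chr15:88819396-88819695, plus strand) is shown as the called member that held it. The other called member, Manf, had no promoter among those given and was not searched.
Creld2: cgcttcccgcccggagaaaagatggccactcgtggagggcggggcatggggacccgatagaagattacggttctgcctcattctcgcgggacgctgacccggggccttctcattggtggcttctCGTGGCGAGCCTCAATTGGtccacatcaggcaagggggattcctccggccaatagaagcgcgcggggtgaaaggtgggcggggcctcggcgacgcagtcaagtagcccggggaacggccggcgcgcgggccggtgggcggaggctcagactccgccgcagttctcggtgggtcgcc
The capitals mark the match, which lies on the opposite strand.

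Among 17 epithelial defence genes 2 were lower (1.08% of all genes were), unevenly over the PAT arrays. Saa1, a serum amyloid A made by ileal epithelium, was at 11.25, 10.89 and 12.02 in the controls and at 4.43, 10.54 and 7.48 in PAT. PAT female 1 was far lower than the others and PAT female 2 lay just under the controls. Its change of -3.91 ± 1.06 (SE, adjusted p = 0.046) was -2.38 without PAT female 1 (adjusted p = 0.22), and the call ended without any 1 array other than PAT female 2. The bactericidal lectin Reg3g was at 14.10, 14.30 and 14.47 against 13.17, 13.94 and 13.72 and fell by 0.68 on the log2 scale (SE 0.17, adjusted p = 0.033), or by 0.46 without PAT female 1 (adjusted p = 0.17), and its call also ended without control female 2 or control female 3. The list median was -0.26, and -0.14 without PAT female 1. None was higher by limma, and at an unadjusted p under 0.05 none was higher and 6 were lower (8.92% of all genes). Sectm1b, which encodes a secreted and membrane protein, was at 11.52, 11.54 and 11.63 in the controls and at 8.53, 10.07 and 9.79 in PAT (-2.10 ± 0.56 SE, adjusted p = 0.045), and its call ended without any 1 of the 6 arrays.

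The other large falls held 7 genes of varied roles. G6pc, the glucose-6-phosphatase that releases free glucose, was at 8.87, 9.25 and 9.81 in the controls and at 7.28, 6.58 and 6.25 in PAT, a change of -2.61 ± 0.44 (SE, adjusted p = 0.0037) that was -2.90 without PAT female 1 (adjusted p = 0.0064). It was the only call among 5 gluconeogenesis genes, whose median was -0.36. Edn2, a vasoactive peptide of the epithelium, was at 9.60, 9.99 and 10.20 against 8.34, 8.14 and 8.90 (-1.47 ± 0.23 SE, adjusted p = 0.0026) and was called whichever array was left out. The iron exporter Slc40a1 was at 11.08, 11.06 and 11.53 against 8.81, 10.40 and 10.05, so PAT female 1 was lowest, and its change of -1.47 was -1.0 without PAT female 1 (adjusted p = 0.041), with the call ending without control female 3 (adjusted p = 0.060). The thyroid hormone deiodinase Dio1 (-1.66), the tubulin-binding Tppp (-1.65), the drug-metabolising Cyp3a25 (-1.58) and Spsb4 (-1.48) fell with adjusted p from 0.021 to 0.031, and their calls ended without any of 3 arrays for Tppp and 5 for the others, PAT female 1, control female 2 and control female 3 among them for each (adjusted p up to 0.13).

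Most cell division genes lay above the controls, and few were called. Of 26 members 3 were higher (2.27% of all genes were), none lower by limma and 23 not called. At an unadjusted p under 0.05, 22 were higher (11.9% of all genes) and none lower. The median was 0.49, and 0.48 without PAT female 1. In 19 of the 26 all 3 PAT arrays lay above all controls, against 14.7% of all genes. This list too was chosen with earlier results of these data known, so its counts are a description. Mcm3, a subunit of the replication helicase, was at 8.29, 8.14 and 7.84 in the controls and at 9.17, 8.95 and 8.88 in PAT (0.91 ± 0.23 SE, adjusted p = 0.031). Bub1, a kinase of the mitotic checkpoint (0.78, adjusted p = 0.041), and Rrm1, a subunit of ribonucleotide reductase (0.61, adjusted p = 0.045), were the others. The probe sets of Mcm3 differed in direction. Without PAT female 1 the changes of Mcm3, Bub1 and Rrm1 were 0.83, 0.78 and 0.48. Each of these 3 calls ended without any 1 array other than PAT female 3 (adjusted p up to 0.19). The list means over controls were 0.54, 0.63 and 0.31 in PAT females 1, 2 and 3.

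Endothelial genes had a median of 0.50, and 0.41 without PAT female 1. Kdr, the main receptor for vascular endothelial growth factor, was at 7.34, 7.34 and 7.03 in the controls and at 8.32, 7.90 and 7.62 in PAT (0.71 ± 0.17 SE, adjusted p = 0.030), and Flt1, a second receptor of that factor, rose by 0.58 ± 0.14 (adjusted p = 0.032). These were the 2 calls of 12 (2.27% of all genes were called higher), with none lower by limma. At an unadjusted p under 0.05, 7 were higher (11.9% of all genes) and none lower. PAT female 1 was the highest of the 3 PAT arrays for both, and both calls ended without any 1 array other than PAT female 3 (adjusted p up to 0.15 for each). The list mean over controls was 0.67 in PAT female 1, where B cell and homing genes were also high, and 0.48 and 0.23 in PAT females 2 and 3, and the part of lymphoid vessels was not tested.

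Bile acid genes were variable. Fgf15, the ileal hormone that restrains bile acid synthesis, was at 7.10, 8.11 and 6.57 in the controls and at 11.36, 8.07 and 8.92 in PAT, and did not pass (2.19, adjusted p = 0.13). PAT female 1 was far higher than the others and PAT female 2 lay within the controls. The nuclear receptor Nr0b2 (1.79, adjusted p = 0.073) and the exporter Abcc2 (1.05, adjusted p = 0.085) lay above the controls in all 3 PAT arrays. None of the 9 genes was called by limma, 3 were higher and 1 lower at an unadjusted p under 0.05, and the median was 0.21.

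A few other lists held 1 call in a direction. The clock transcription factor Arntl fell by 0.68 on the log2 scale (adjusted p = 0.026) among 14 clock genes with a median of 0.083. Of 5 glucocorticoid-responsive genes Fkbp5, a chaperone of the receptor, rose (0.61, adjusted p = 0.041, with probe sets that differed in direction) and Sgk1, a kinase of ion transport, fell (-0.94, adjusted p = 0.027). The brush border protease Mep1a fell (-0.67, adjusted p = 0.028) among 15 brush border genes with a median of -0.29, and of 17 xenobiotic metabolism genes Nqo1, a quinone reductase, rose (0.56, adjusted p = 0.045) and Cyp3a25 fell. Each of these calls ended without 4 to 6 of the arrays left out in turn, PAT females 1 and 2 among them for every gene (adjusted p up to 0.16).

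Of the 43 lists 23 held no call by limma, those of epithelial lineages among them. Medians were 0.16 for crypt stem cell and Wnt target genes, 0.12 for Paneth, -0.083 for goblet, -0.056 for tuft and -0.059 for enteroendocrine cells, and at an unadjusted p under 0.05 these 5 lists held 1 higher gene and 5 lower. Cholesterol synthesis and uptake genes had a median of -0.032, and 0.19 without PAT female 1, with none higher and 1 lower at that level. The goblet protein Clca1 (-0.31, adjusted p = 0.082) and the cholesterol carrier Stard4 (-0.43, adjusted p = 0.060) were the nearest to a call among them. Medians of the other lists were 0.25 for neutrophil and inflammatory genes, 0.040 for mast cell, -0.16 for smooth muscle, -0.013 for fibroblast and matrix, -0.030 for exocrine pancreas and -0.22 for mesothelial genes. At an unadjusted p under 0.05, 3 neutrophil and 2 fibroblast genes were higher, and none of the others was either way.

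**Figure D5:**
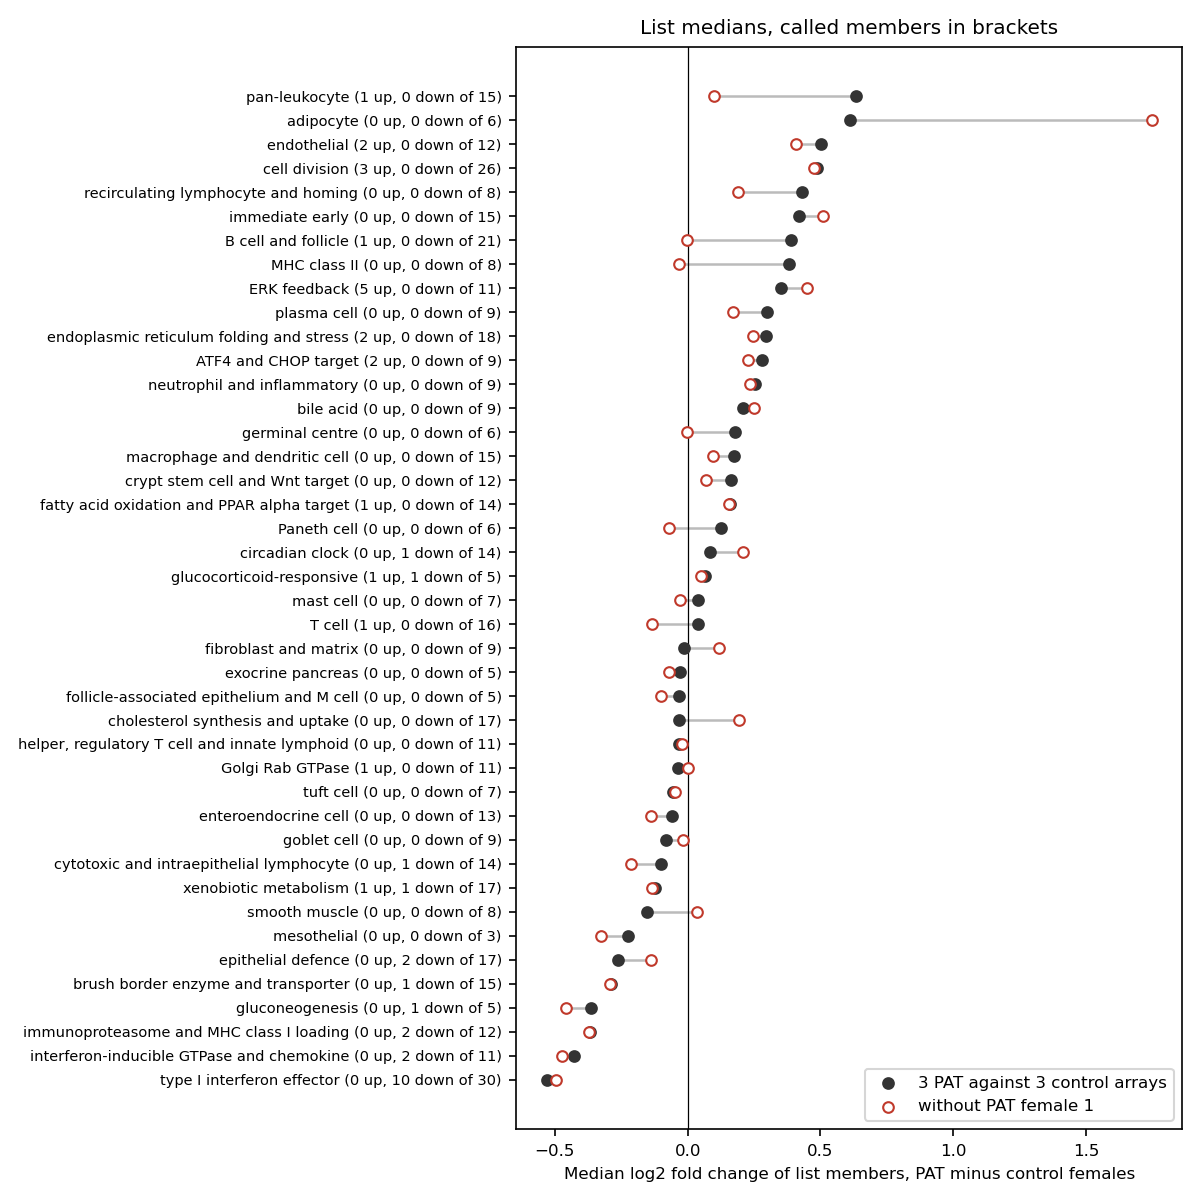
Median log2 change of list members between PAT and control females (horizontal axis) for each gene list except the sex-linked one (vertical axis), with filled points for all arrays and open points without PAT female 1. The medians of B cell and MHC class II genes move to near 0 without it, those of interferon, ERK feedback and cell division genes move by little, and that of adipocyte genes rises from 0.61 to 1.75.

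The same treatment in males gave the comparison most like this one, and the difference between the sexes was tested as an interaction. It was called for 1 gene (0.0055% of all genes), while 3383 of 18193 had an unadjusted p under 0.05. Fam122b was at 6.41, 6.09 and 6.39 in control females and at 6.70, 6.95 and 6.81 in PAT females, and fell in males by 0.39 on the log2 scale (adjusted p = 0.0082). The difference of 0.91 ± 0.14 (SE) had an adjusted p of 0.037. Next came Dmp1, which changed by 1.68 in females and -0.51 in males (difference adjusted p = 0.055), then Mnd1 of meiotic recombination, the lysosomal enzyme Galc and 4930579G24Rik, which did not pass at an adjusted p of 0.094. Of the 610 genes called in females 491 had the same sign in males, 190 were called there in the same direction (2.34% of all genes were called higher in males and 6.68% lower) and 1 in the opposite direction. The share of all genes with the same sign in both sexes was not counted, so the 491 are a description.

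Lists pointed the same way or not by sex. The median for type I interferon effectors was -0.53 in females and -0.19 in males. In males 5 of the 30 were lower (6.68% of all genes were) and none higher by limma. Their list mean over control males ran from -0.61 to 0.37 over the PAT males. Ifit1 was at 8.89 in PAT male 5 and at 6.10 to 6.93 in the other PAT males, while Trim30d was at 7.84 against 7.26 to 8.54. The median for cell division genes was 0.49 in females and -0.16 in males. For the 100 lymphoid genes it was 0.16 and -0.023, for B cell genes 0.39 and 0.015, and for endothelial genes 0.50 and 0.046. Without PAT female 1 these 3 medians in females were -0.0084, -0.0020 and 0.41. ERK feedback genes had medians of 0.35 and 0.26. No member of these lists passed the interaction test, and 20 of the 26 cell division genes and 27 of the 100 lymphoid genes had a positive difference at an unadjusted p under 0.05, against 2194 of all 18193. These counts include PAT female 1, which carried the higher lymphoid levels in females, and were not repeated without it.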

How the data were processed

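Arrays of ileal RNA were used as the authors deposited them, 22 columns of log2 values, which per the submitters' processing notes came from RMA and affy, with versions not given in the sources used here. RMA equalises the distribution of values over arrays and compresses differences of dim probes, and a total shift in RNA is not measured. A dim gene, here one with a mean under 6, has less room to fall. Of 45101 probe sets 64 were the maker's controls, 34945 had 1 symbol in the platform annotation, 932 several and 9160 none. Each of 18193 genes was read through the probe set brightest on average over the 22 arrays. Among the 610 called genes 340 had several probe sets, and in 80 of these they differed in direction, none called opposite.

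Group means over all 22 arrays were fitted with limma 3.58.1 in R 4.3.3 (16 residual degrees of freedom), without covariates, and p-values were adjusted over all genes by the Benjamini-Hochberg method. The script was tested on simulated data. Column medians were 5.68 to 5.79, correlations between arrays 0.984 to 0.997, and none of 231 pairs was identical. The number of arrays limits the precision. Named genes were the 15 largest called rises and falls whose brighter group averaged 6 or more, every lymphoid list member, the called or nearest members of other lists, the called or 5 leading interaction genes, and the genes with the widest gap between PAT female 1 and the other PAT arrays. Of 539 genes in 43 lists 494 were measured. Members and lists were chosen with earlier results of these data known. Lists of region genes were chosen after their values were seen.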

Additional observations from a re-analysis of the deposited data

Results flagged for a closer look

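The mean log2 level of the plasma cell list in PAT males was 7.76 in 1 array and 7.33, 7.40, 7.40 and 7.41 in the others, so that array lay far from its group. It was the only such case among 16 combinations of a lymphoid list and a male group, and chance gives about 1 in 20. The PAT effect on Fam122b was 0.91 higher in females than in males, a difference that passed the interaction test in limma (adjusted p = 0.037). Galc and Axin2 were higher in every PAT female than in every control female, and lower in every PAT male than in every control male. Their differences between the sexes were 0.80 (adjusted p = 0.094) and 0.42 (adjusted p = 0.14) and did not pass.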

How the results depend on the processing

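No paired analysis was possible because the labels give the groups no shared replicate numbers. The 610 calls in females became 1524 with array weights (999 higher and 525 lower), 142 with the Gapdh end difference as a covariate (102 and 40) and 123 to 751 with 1 array left out, and otherwise stayed within 1.5 times (532 to 847). The single interaction call became 0 with every probe set, with PAT and control arrays only or with an intensity trend, 2 with quantile normalization repeated or with columns centred on their medians, 22 with columns centred on the median of the genes tested (3 positive and 19 negative, an alternative chosen after seeing the data), 165 with array weights, and 0 to 59 with 1 array left out. The lymphoid median of 0.16 was 0.31 over genes with a mean of at least 6, 0.089 centred on the genes tested, 0.10 with array weights, and -0.0084 to 0.26 with 1 array left out. The B cell median of 0.39 was 0.29 with every probe set, 1.0 over genes with a mean of at least 6, 0.32 centred on the genes tested, 0.16 with array weights, 0.25 with the covariate, and -0.0020 to 0.76 with 1 array left out. The 10 lower interferon effectors were 6 with the covariate and 2 to 6 with 1 array left out, and the 5 higher ERK feedback genes were 3 centred on the genes tested and 1 to 2 with 1 array left out. The cause of these shifts was not tested, except that leaving out an array leaves fewer samples. None of the 237 named genes reversed under any alternative run while called. Of the 64 called among them 35 lost the call with the covariate and 11 when centred on the genes tested, Apoa4, Cxcl13, Thy1 and Sash3 among them. With 3 arrays a group and 55 of 100 lymphoid genes at a mean under 6, small changes of dim genes could not be measured.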
